A study of Mus musculus with 9 samples.

Results

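Carbonyl reductases and aldo-keto reductases are enzymes that turn aldehydes and ketones into alcohols with NADPH as the electron donor. A set of 9 such mouse genes was chosen by name: the short-chain reductases Cbr1, Cbr3, Cbr4 and Dcxr, and the aldo-keto reductases Akr1b7, Akr1c6, Akr1c14, Akr1c20 and Akr7a5. A gene was followed through a probe set annotated to its symbol alone, and where it had several, through the one with the highest mean signal over the 9 arrays. By this rule 8 of the 9 genes could be followed, among 18193 genes with such a probe set in the whole data set. Akr1b7, an aldose reductase-like enzyme, carried no probe set of its own in the annotation used and was not analysed here.

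The signals come from livers of female Crlj:CD1(ICR) mice, an outbred stock, bought at an age of 9 weeks and quarantined for 1 week. A powdered diet with 5000 ppm permethrin, a diet with 5000 ppm clofibrate and the control diet without either compound were each given to 3 mice for 2 weeks, and each mouse was measured on its own Affymetrix array. Permethrin is a pyrethroid insecticide, and clofibrate is a lipid-lowering fibrate and a ligand of the nuclear receptor PPAR alpha. The permethrin and clofibrate comparisons share the same 3 control arrays, so they are not independent of each other. P-values set a difference between groups against the spread between these mice only.

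In liver these reductases detoxify quinones, lipid aldehydes and drug carbonyls, and several of them also act on steroids, bile acid precursors, prostaglandins or sugars. The short-chain family folds around a bound nucleotide and uses a tyrosine and a lysine in catalysis, while the aldo-keto reductases are barrel-shaped and arose separately. Transcription of such genes can follow NRF2, the factor that responds to electrophiles, and the drug receptors CAR and PXR. These statements are background and were not measured here.

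Signals are the linear MAS5 values that the authors deposited, and differences are given on the scale of log2(signal + 3.35), where 3.35 is the 20th percentile of all signals. The median signal of an array lay between 13.4 and 17.9, and the highest signal was 12792 to 13408 with permethrin, 10714 to 12058 with clofibrate and 14387 to 14899 in controls. Of 15 hepatocyte markers 13 had a probe set, and none of these 13 stayed at or below the filter signal of 15.6 on all arrays. The summed signal of these markers was 95284 to 103300 with permethrin, 74831 to 92880 with clofibrate and 108843 to 119862 in controls, so the 3 groups did not overlap. The markers of bile duct, lymphocytes, red cells, adrenal cortex, small intestine and pancreas that never passed that signal were 3 of 7, 1 of 8, 2 of 5, 3 of 10, 3 of 9 and 3 of 8. Those of Kupffer cells, stellate cells and endothelium all passed it on at least 1 array, and the Kupffer list summed to 3000 to 6471 with permethrin, 3490 to 4828 with clofibrate and 3553 to 4219 in controls. The endothelial list summed to 2546 to 2886 with permethrin, 2145 to 2396 with clofibrate and 2868 to 3155 in controls. The pancreas list summed to 233 to 361 with permethrin, 272 to 320 with clofibrate and 1225 to 1524 in controls. That sum rests on Cela1, an elastase, which averaged 207 with permethrin, 200 with clofibrate and 1295 in controls. The other pancreas markers were dim. Cela2a, another elastase, averaged 17.0 with permethrin, 11.0 with clofibrate and 30.0 in controls. Cela3b, also an elastase, averaged 25.3 with permethrin, 40.1 with clofibrate and 38.2 in controls. Ctrb1, Cpa1 and Cpb1 were the 3 that never passed the filter signal. Of 5 pancreas markers tested against control, limma called 1 lower with each diet, Cela1, and 0 higher. At an unadjusted limma p under 0.05, 3 were lower with permethrin and 2 with clofibrate, and 0 were higher with either. The part of these marker differences in the results was not tested. In whole liver, fewer cells of a type and less RNA per cell cannot be told apart.

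Permethrin raised Cbr3 and Cbr1, clofibrate raised Cbr3 to a smaller extent and lowered Akr1c6 and Akr1c20, and no difference of the other 4 genes passed the threshold in any comparison. Against control, 2 of the 8 genes were called higher with permethrin by limma (adjusted p under 0.05), where 1.28% of the 12466 genes tested were called higher. None of the 8 was called lower, against a background of 0.85% called lower. At an unadjusted limma p under 0.05, 2 of the 8 were higher and 1 lower. The share of all genes at an unadjusted p under 0.05 is not given here, so the unadjusted counts have no background. With clofibrate 1 of 8 was called higher against a background of 3.22%, and 2 of 8 were called lower against a background of 3.8%. At an unadjusted limma p under 0.05, 2 of the 8 were higher and 3 lower with clofibrate. Between the diets, 1 of 8 was higher with permethrin than with clofibrate against a background of 0.473%. None was called lower, against a background of 0.265% called lower. At an unadjusted limma p under 0.05, 5 of the 8 were higher with permethrin than with clofibrate and 1 was lower. Cbr3 passed the filter through its treated arrays, since its control signals lie around the filter, so its place in these counts follows in part from the filter.

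**Figure D1:**
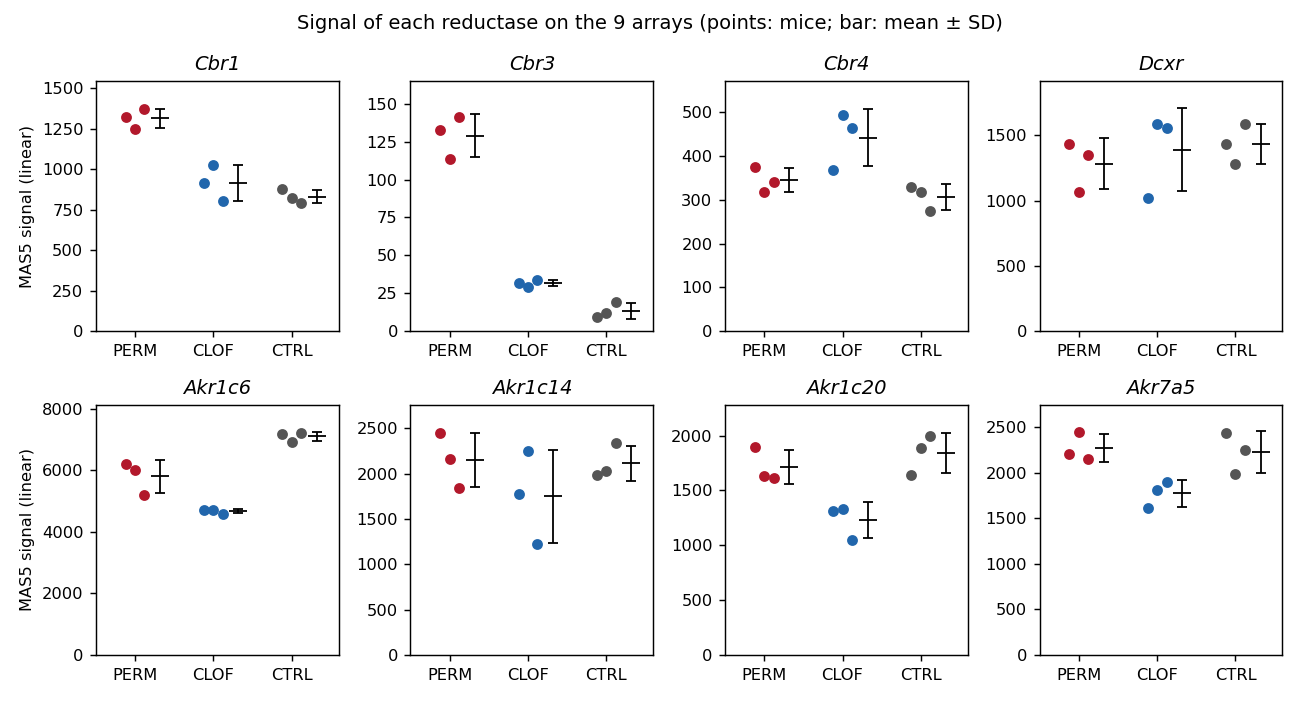
Linear MAS5 signal (vertical axis from 0) of the 8 reductases on the arrays of 3 permethrin (PERM), 3 clofibrate (CLOF) and 3 control (CTRL) mice, with the mean ± SD beside the points. The 3 permethrin points of Cbr3 lie between 113 and 141, above all others, and the 3 clofibrate points of Akr1c6 lie between 4585 and 4717, below all others.

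Cbr3, a cytosolic carbonyl reductase closely related in sequence to Cbr1, showed the largest difference among the 8 genes. Its signal was 133, 113 and 141 in the permethrin mice, 31.8, 29.4 and 33.6 in the clofibrate mice, and 9.18, 12 and 19.5 in the control mice. The order was therefore permethrin, clofibrate, control, and no neighbouring groups in this order overlapped. The group means were 129 ± 14.2 with permethrin, 31.6 ± 2.09 with clofibrate and 13.6 ± 5.30 in controls (SD, n = 3). Permethrin raised it by 3.01 ± 0.23 on the log2(signal + 3.35) scale (standard error), with a 95% confidence interval of 2.51 to 3.51 (limma adjusted p = 5.92e-05). The control signals were not shown to lie above background, so no fold over control is given.

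Clofibrate raised Cbr3 by 1.09 ± 0.23 on that scale, with an interval of 0.59 to 1.59 (limma adjusted p = 0.0173). The difference between the diets was itself past the threshold, at 1.92 ± 0.23 in favour of permethrin, or 3.78-fold with an interval of 2.67 to 5.33 (limma adjusted p = 0.00433). Because the control and clofibrate signals are low, the size depends on the offset. The log2 difference for permethrin against control was 3.21 with an offset of 1 and 1.49 with an offset of 50, past the threshold in each. Between the diets it was 1.99 and 1.13 with the same offsets, also past the threshold. For clofibrate against control it was 1.22 and 0.36, and the call was lost at 50 (adjusted p = 0.0523). It was also lost without control replicate 1 (0.90, adjusted p = 0.0601), without control replicate 2 (1.05, adjusted p = 0.0572) and without clofibrate replicate 3 (1.05, adjusted p = 0.0723).

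Cbr1, the main cytosolic carbonyl reductase, acts on quinones, prostaglandins and anthracycline drugs. Its signal was 1321, 1246 and 1368 with permethrin, 916, 1026 and 801 with clofibrate, and 876, 822 and 794 in controls. All 3 permethrin mice lay above all others, whereas the clofibrate range enclosed the control mice at 822 and 876 and its lowest mouse stood just above the lowest control. Permethrin raised Cbr1 by 0.66 ± 0.11 on the log2 scale, 1.58-fold with an interval of 1.33 to 1.87 (limma adjusted p = 0.0138). With clofibrate the difference from control was 0.13 with an interval of -0.11 to 0.38 (limma adjusted p = 0.588). The difference between the diets, 0.53 with an interval of 0.28 to 0.77, missed the threshold (limma adjusted p = 0.0672), so a Cbr1 response particular to permethrin was not shown. The call against control ended without control replicate 2 (0.65, adjusted p = 0.0528), without control replicate 3 (0.63, adjusted p = 0.0684) and without permethrin replicate 3 (0.63, adjusted p = 0.0674).

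Cbr1 and Cbr3 are direct neighbours among the protein-coding genes of chromosome 16, and both were called higher with permethrin. Their probe sets may each read the related transcript, which was not tested. The upstream sequences of this pair are shown because of this shared call, which did not extend to clofibrate. That of Akr1c6, described further on, is shown as 1 of the 2 genes called lower with clofibrate; the other, Akr1c20, has no entry in the table. Each is the stretch of 250 bases before the annotated start in RefSeq, build GRCm38.p6, on the plus strand, written 5′ to 3′ with matches to the GC box GGGCGG in capitals.
Cbr1, chr16:93607587-93607836: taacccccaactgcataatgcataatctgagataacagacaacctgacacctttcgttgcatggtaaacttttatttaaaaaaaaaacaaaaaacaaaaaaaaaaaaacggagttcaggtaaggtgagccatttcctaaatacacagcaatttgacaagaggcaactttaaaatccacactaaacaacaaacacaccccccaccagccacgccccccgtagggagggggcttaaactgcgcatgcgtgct
Cbr3, chr16:93682969-93683218: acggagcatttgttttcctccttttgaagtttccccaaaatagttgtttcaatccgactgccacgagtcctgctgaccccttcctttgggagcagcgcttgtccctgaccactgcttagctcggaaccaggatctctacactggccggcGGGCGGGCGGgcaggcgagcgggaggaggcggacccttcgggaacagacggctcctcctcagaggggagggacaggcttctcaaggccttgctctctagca
Akr1c6, chr13:4434093-4434342: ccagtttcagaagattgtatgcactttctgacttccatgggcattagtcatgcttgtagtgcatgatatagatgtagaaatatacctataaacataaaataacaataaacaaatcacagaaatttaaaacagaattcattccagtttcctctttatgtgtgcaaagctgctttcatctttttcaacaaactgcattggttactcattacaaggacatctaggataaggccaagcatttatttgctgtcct

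The Cbr3 stretch holds 2 overlapping GC boxes, the first beginning 101 bases before the start, and has a GC content of 59.6%. Cbr1 has no GC box and 41.6% GC, and Akr1c6 has none and 34% GC, where the median over 32851 promoter windows of the same length was 52.4%. A GC box on either strand was present in 32.7% of these windows, and this motif was picked after the values were seen. Akr7a5, which was called in no comparison, also holds 2 GC boxes and has 68.8% GC. The windows of all other genes with an entry, apart from Cbr3, hold none. The core of the antioxidant response element, TGACNNNGC, which NRF2 binds, was absent on both strands from the windows of all 8 genes that have an entry, Akr1b7 included, and present in 10.2% of all windows. Repeats of AGGTCA separated by 1 base (DR1, the PPAR type) or by 4 bases (DR4, a CAR type) were absent as well, with a share of 0.0335% and 0.0152% of all windows. An absent match says only that these letters do not occur in the window.

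Cbr4, a mitochondrial carbonyl reductase that in human cells forms a subunit of the ketoacyl reductase of mitochondrial fatty acid synthesis, had a signal of 375, 319 and 342 with permethrin, 368, 494 and 464 with clofibrate, and 329, 318 and 274 in controls. The clofibrate mice lay above every control mouse, while the permethrin mice overlapped with both other groups. The difference for clofibrate against control was 0.51 with an interval of 0.21 to 0.82 and narrowly missed the threshold (limma adjusted p = 0.0574). Without clofibrate replicate 1 it was 0.64 and passed (adjusted p = 0.0236). For permethrin against control it was 0.17 with an interval of -0.14 to 0.48 (limma adjusted p = 0.651), and between the diets -0.35 with an interval of -0.65 to -0.04 (limma adjusted p = 0.353).

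Dcxr reduces L-xylulose in the glucuronic acid pathway and also reactive dicarbonyls. Its signal was 1436, 1063 and 1352 with permethrin, 1022, 1589 and 1556 with clofibrate, and 1432, 1282 and 1589 in controls. All groups overlapped, and 1 mouse of each treated group stood well below the others of its group. No comparison passed the threshold: the log2 differences from control were -0.17 with permethrin (interval -0.55 to 0.22) and -0.07 with clofibrate (interval -0.46 to 0.32), and that between the diets was -0.10 (interval -0.49 to 0.29). Its neighbour on chromosome 11, Cbr2, another short-chain reductase, was above the filter signal on 2 of the 9 arrays and was not tested.

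**Figure D2:**
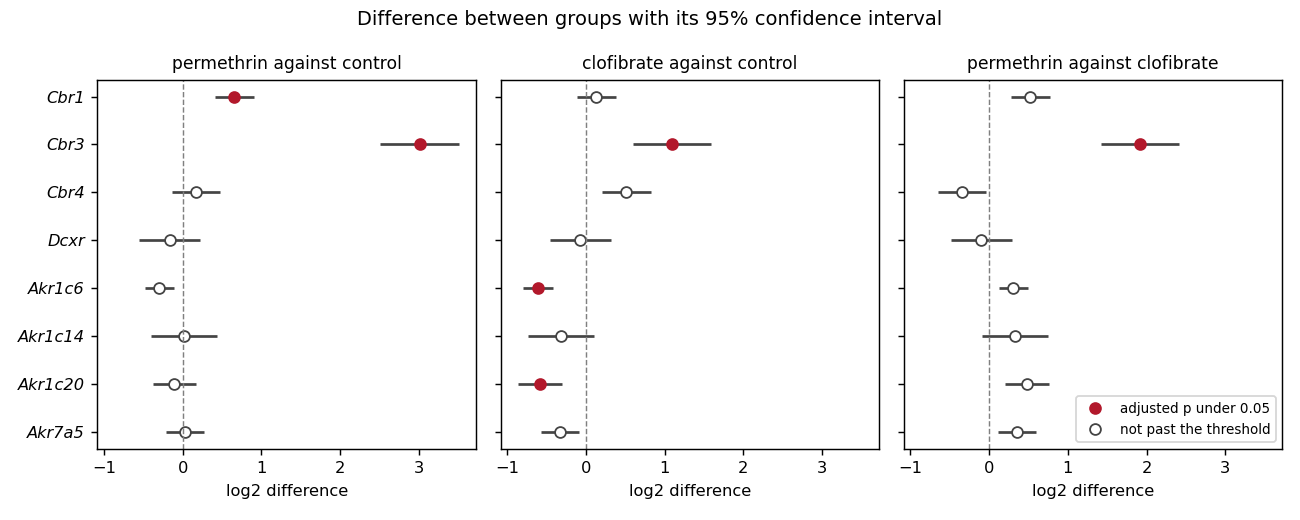
Log2 difference (horizontal axis) with its 95% confidence interval for the 8 reductases in 3 comparisons, with filled points past the limma threshold. Cbr3 stands at 3.01, 1.09 and 1.92 from left to right, while Akr1c6 and Akr1c20 are called in the clofibrate comparison with control at -0.60 and -0.59.

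The aldo-keto reductases of the 1C subfamily oxidize and reduce steroids and are encoded in a cluster on chromosome 13, where Akr1c6 and Akr1c20 are direct neighbours. Akr1c6 is a 17-beta-hydroxysteroid dehydrogenase of mouse liver that interconverts weak and strong sex steroids. Its signal was 6196, 6006 and 5202 with permethrin, 4717, 4695 and 4585 with clofibrate, and 7170, 6917 and 7201 in controls. The clofibrate group was the lowest, the permethrin group came next and the control group was the highest, with no overlap between neighbours. Clofibrate lowered it by 0.60 ± 0.09 on the log2 scale, 1.52-fold with an interval of 1.33 to 1.73 (log2 difference -0.60, limma adjusted p = 0.00197). With permethrin the difference from control was -0.29 with an interval of -0.48 to -0.11 and did not pass (limma adjusted p = 0.134), and between the diets it was 0.31 with an interval of 0.12 to 0.50 (limma adjusted p = 0.158).

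Akr1c20, a further member of the cluster, had a signal of 1895, 1631 and 1613 with permethrin, 1310, 1335 and 1044 with clofibrate, and 1641, 1884 and 2001 in controls. All clofibrate mice lay below all others, and the permethrin and control ranges overlapped. Clofibrate lowered it 1.5-fold with an interval of 1.24 to 1.82 (log2 difference -0.59 ± 0.13, limma adjusted p = 0.0202). A second, dimmer probe set of Akr1c20 read 127, 141 and 112 with permethrin, 103, 82.2 and 68.8 with clofibrate, and 144, 138 and 170 in controls, and was also called lower with clofibrate (log2 difference -0.82 ± 0.17, limma adjusted p = 0.0173). For permethrin against control the first probe set gave -0.10 with an interval of -0.38 to 0.17, and for permethrin against clofibrate 0.48 with an interval of 0.20 to 0.76, neither past the threshold (limma adjusted p = 0.777 and 0.138).

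The clofibrate call of Akr1c20 ended without control replicate 2 (-0.57, adjusted p = 0.0735), without control replicate 3 (-0.52, adjusted p = 0.0832) and without clofibrate replicate 3 (-0.47, adjusted p = 0.0895). Scaling each array to its spiked-in hybridization controls moved the median of all genes by 0.29 for clofibrate against control. Under that scaling Akr1c6 stood at -0.30 and Akr1c20 at -0.28, no longer called, or at -0.54 and -0.52 relative to the median gene. Other bright hepatocyte genes were lower in the same mice. Of the 13 hepatocyte markers measured, 8 were called lower with clofibrate against control and 0 higher, with a median log2 difference of -0.42, where the median over all genes was -0.04. Cyclic loess evens out differences between arrays that depend on signal, whatever their origin. With it Akr1c6 stood at -0.43 and Akr1c20 at -0.51, both past the threshold (limma adjusted p = 0.0107 and 0.0431). The part of the marker shift in these falls was not tested.

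Akr1c14, a 3-alpha-hydroxysteroid dehydrogenase of the same cluster, had a signal of 2445, 2157 and 1845 with permethrin, 1771, 2251 and 1228 with clofibrate, and 1980, 2025 and 2337 in controls. The groups overlapped, and the clofibrate mice were the most spread, at 1750 ± 512 against 2149 ± 300 with permethrin and 2114 ± 194 in controls (SD, n = 3). The difference from control was 0.02 with permethrin (interval -0.40 to 0.44, limma adjusted p = 0.979) and -0.31 with clofibrate (interval -0.73 to 0.11, limma adjusted p = 0.423). Between the diets it was 0.33 with an interval of -0.09 to 0.75 (limma adjusted p = 0.533).

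Akr7a5 reduces aflatoxin dialdehyde and succinic semialdehyde and was read by 3 probe sets. The brightest gave 2205, 2447 and 2154 with permethrin, 1610, 1811 and 1899 with clofibrate, and 2438, 1983 and 2251 in controls. On this probe set the clofibrate mice lay below all others, at a log2 difference of -0.32 from control with an interval of -0.56 to -0.08 that did not pass the threshold (limma adjusted p = 0.121). The next brightest gave 1382, 1215 and 1528 with permethrin, 1372, 1556 and 1597 with clofibrate, and 1570, 1456 and 1709 in controls, with a difference of -0.07 for clofibrate (interval -0.32 to 0.19). There the clofibrate and control ranges overlapped, so the probe sets disagree on the separation of the groups. The third stayed between 6.91 and 25.7 over all 9 arrays, near the filter. With permethrin the brightest probe set differed from control by 0.03 (interval -0.21 to 0.27, limma adjusted p = 0.937), and from clofibrate by 0.36 (interval 0.12 to 0.60, limma adjusted p = 0.211).

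The separation of ranges alone gives a less strict view. Permethrin and control did not overlap for 3 of 8 genes, Cbr1, Cbr3 and Akr1c6, where 22.7% of all genes tested did not. Clofibrate and control did not overlap for 5 of 8, against 27.2% of all genes, and permethrin and clofibrate did not overlap for 5 of 8, against 18.1%. The median log2 difference over the 8 genes was 0.02 for permethrin against control and -0.19 for clofibrate against control, where the median over all genes was -0.04 in each. For permethrin against clofibrate the medians were 0.34 over the 8 genes and -0.01 over all.

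Among all genes tested, those whose profile over the 9 arrays was most alike to that of Cbr3 were Osbpl3, Abcc4 and Fitm2. Likeness was the root mean square difference of log2 signals, each centred on its control mean, and it was 0.76, 0.76 and 0.82 for these genes, where the median over 12465 genes was 1.92. Osbpl3 is an oxysterol-binding protein, Abcc4 an efflux pump of the cell membrane and Fitm2 a protein of lipid droplet formation. Abcc4 averaged 318 ± 43.1 with permethrin, 198 ± 80.9 with clofibrate and 38.0 ± 8.89 in controls (SD, n = 3). Osbpl3 averaged 63.9 ± 14.1 with permethrin, 38.2 ± 9.33 with clofibrate and 15.3 ± 1.75 in controls (SD, n = 3). Fitm2 averaged 595 ± 107 with permethrin, 491 ± 125 with clofibrate and 167 ± 23.9 in controls (SD, n = 3). The permethrin and clofibrate arrays overlapped for Abcc4 and Fitm2, which they did not for Cbr3. These genes were chosen for their likeness, so a shared order of groups is no further result. The control signals of Osbpl3 were 17.3, 14.0 and 14.7, near the filter, so it passed the filter mainly through its treated arrays.

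**Figure D3:**
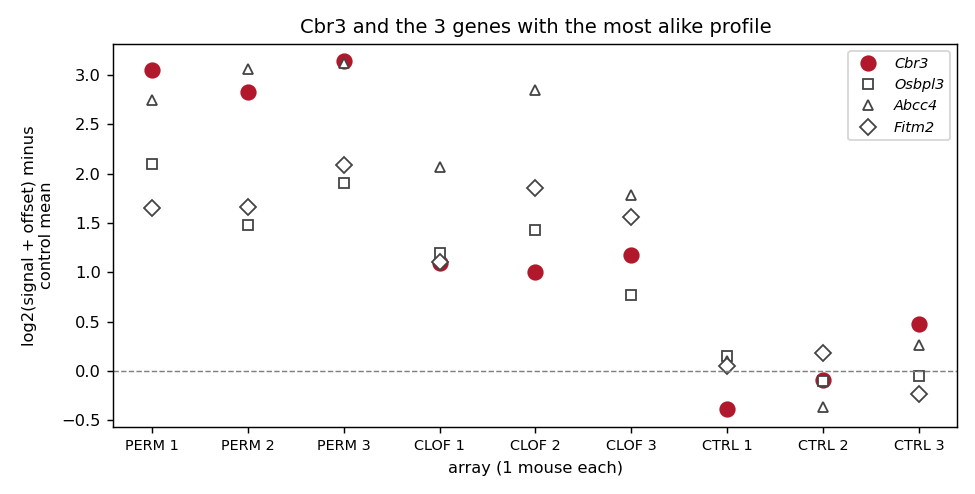
Log2(signal + offset) minus the control mean (vertical axis) on the 3 permethrin, 3 clofibrate and 3 control arrays for Cbr3 (filled) and the 3 genes with the most alike profile (open). The control arrays lie around 0, and the genes were chosen for their likeness to Cbr3.

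Related reductases outside the set moved in both directions. Of 9 other aldo-keto reductases tested, 0 were called for permethrin against control by limma, with 3 higher and 1 lower at an unadjusted p under 0.05. With clofibrate 1 was called lower, Akr1d1, the 5-beta-reductase of bile acid synthesis, which averaged 1335 ± 122 with permethrin, 1048 ± 80.9 with clofibrate and 1573 ± 53.9 in controls (SD, n = 3) and fell 1.5-fold (limma adjusted p = 0.00729). None was called higher with clofibrate, where 2 had an unadjusted p under 0.05. Akr1c19, another gene of the 1C group and chosen here after its values were seen, read 2402, 2508 and 1793 with permethrin, 1262, 801 and 1500 with clofibrate, and 1205, 1356 and 822 in controls. Its permethrin mice lay above all others, with a log2 difference of 1.00 from control that missed the threshold (limma adjusted p = 0.0707).

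Of 23 other short-chain carbonyl and retinal reductases tested, 4 were called higher and 2 lower with permethrin, and 5 higher and 2 lower with clofibrate. Rdh16, a retinol dehydrogenase, averaged 705 ± 54.3 with permethrin, 1297 ± 354 with clofibrate and 332 ± 37.7 in controls (SD, n = 3), called higher in both comparisons with control (limma adjusted p = 0.0151 and 0.000192). Rdh5, which makes 11-cis-retinal in the eye, averaged 107 ± 14.6 with permethrin, 101 ± 5.68 with clofibrate and 225 ± 50.4 in controls (SD, n = 3), called lower in both (limma adjusted p = 0.0135 and 0.00376). Hsd17b12, which acts in fatty acid elongation, was 1.73-fold and Dhrs4, a peroxisomal carbonyl reductase, 1.49-fold higher with permethrin. With clofibrate Dhrs7b was 2.25-fold, Dhrs4 2.19-fold and Hsd17b12 1.87-fold higher. Of 11 quinone and enone reductases, 1 was called higher with permethrin, Txnrd1, thioredoxin reductase, by 1.52-fold. With clofibrate limma called 0 of these 11, with 2 higher and 3 lower at an unadjusted p under 0.05.

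**Figure D4:**
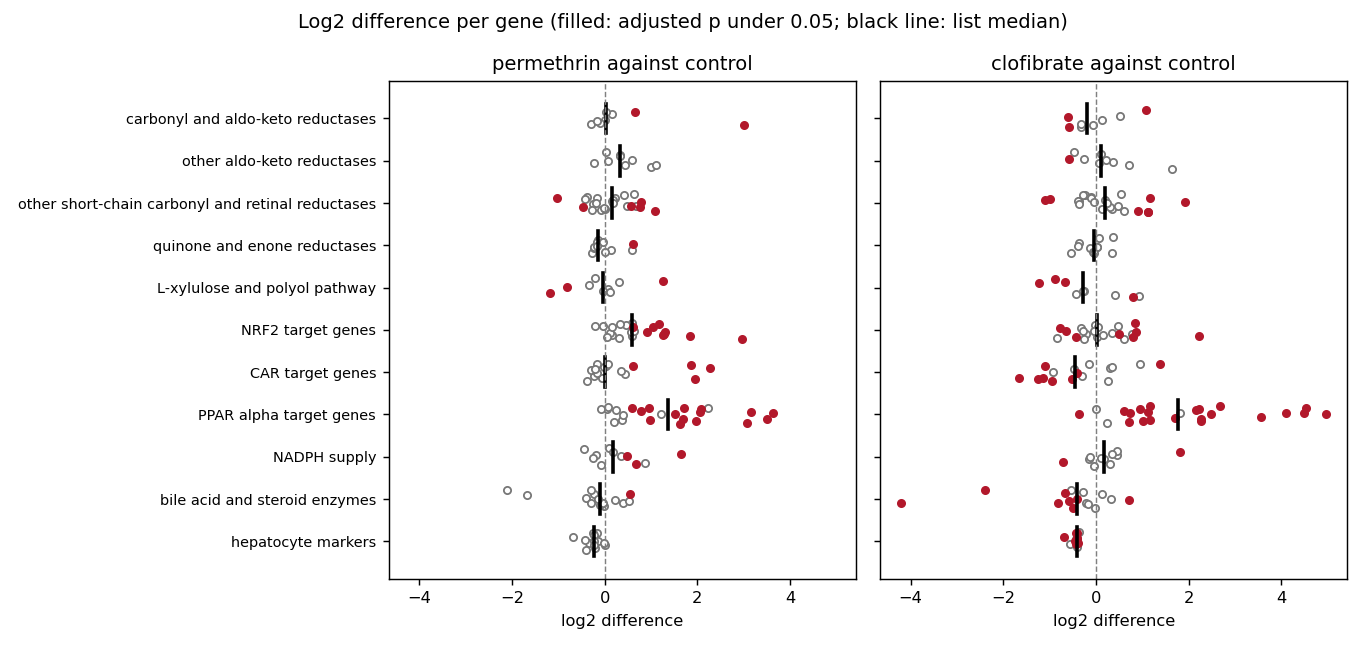
Log2 difference from control (horizontal axis) of each tested gene in the reductase set and in 10 further lists, for permethrin (left) and clofibrate (right); filled points passed the limma threshold and black lines are list medians. The NRF2 list has a median of 0.59 with permethrin and 0.03 with clofibrate, while the PPAR alpha list lies at 1.37 and 1.76.

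Lists of target genes of NRF2, CAR and PPAR alpha are given as counts beside the set, without a test of the lists themselves. Of 22 NRF2 targets tested, 9 were called higher and 0 lower with permethrin against control, 0 of them lower at an unadjusted p under 0.05, with a median of 0.59. With clofibrate 5 were higher and 3 lower, with a median of 0.03. Permethrin exceeded clofibrate for 5 of these 22 and was below it for 0, also 0 at an unadjusted p under 0.05. The targets with the largest difference from control under permethrin were Abcc4, and the glutathione transferases Gstm3 and Gsta2, at 2.97, 1.85 and 1.31 on the log2 scale. Of 16 CAR targets, 4 were called higher and 0 lower with permethrin, with a median of 0.01, where the median over all genes was -0.04. With clofibrate 1 was called higher and 7 lower, with a median of -0.44. Cyp2b10, the usual CAR marker, averaged 3985 ± 309 with permethrin, 342 ± 53.4 with clofibrate and 836 ± 234 in controls (SD, n = 3). Of 24 PPAR alpha targets, 15 were called higher and 0 lower with permethrin, where also 0 were lower at an unadjusted p under 0.05. With clofibrate 20 were called higher and 1 lower, Fabp1, a fatty acid-binding protein. For permethrin against clofibrate limma called 5 of the 24 lower and 0 higher, with 2 higher at an unadjusted p under 0.05.

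Enzymes that supply the NADPH used by the reductases were called higher in 3 of 11 cases with permethrin and in 1 of 11 with clofibrate, where 1 was lower. Me1, malic enzyme, was the gene of the list with the largest difference in each, 3.14-fold higher with permethrin and 3.52-fold higher with clofibrate. Of 9 other genes of the L-xylulose and polyol pathway, in which Dcxr acts, 1 was called higher and 2 lower with permethrin, and 1 higher and 3 lower with clofibrate. Ugdh, which makes UDP-glucuronic acid, was 2.40-fold higher with permethrin and 1.74-fold higher with clofibrate. Gulo was 2.25-fold lower with permethrin and 2.34-fold lower with clofibrate, and Khk was 1.74-fold and 1.85-fold lower. Of 15 bile acid and steroid enzymes, 1 was called higher with each diet against control, and 7 were called lower with clofibrate, among them Akr1d1. The largest of these falls were those of Hsd3b5 and Hsd3b2, at -4.20 and -2.40 on the log2 scale. Hsd3b5 varied widely, at 28.4 ± 24.7 with clofibrate and 544 ± 565 in controls (SD, n = 3). With permethrin limma called 0 of the 15 enzymes lower, with 5 at an unadjusted p under 0.05.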

How the data were processed

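Liver RNA of 9 mice, 3 per diet, was hybridized to 1 Affymetrix array each. Per the labels, biotin-labelled cRNA was used, and per the submitters' processing notes the authors computed MAS5 values; its version is not given here. The deposited table holds linear signal intensity per probe set, not log-transformed, with each array scaled to a trimmed mean of 100.001. No detection calls were used. Of 45037 probe sets without array controls, 34945 carry 1 symbol and 932 several; symbols were updated through Entrez identifiers to RefSeq (GRCm38.p6).

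A probe set was tested when 3 or more arrays exceeded 15.6, which is the median signal of the table (24546 tested). An offset of 3.35 was added before log2. limma 3.58.1 in R 4.3.3 fitted all 9 arrays with a mean per group and an intensity trend. P-values are two-sided and adjusted by Benjamini-Hochberg over all tested probe sets in each of 3 comparisons, with a threshold of 0.05. Genes are represented by the probe set with the highest mean signal, which left 12466 tested genes as background. The number of arrays limits the precision.

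The members, lists and tests were chosen with earlier results of these data known. All members are named. Genes of other lists are named as examples and are not always those with the largest difference in a comparison. Members were matched to the genes of most alike profile when called with a log2 difference of at least 1. Alternatives covered offset, normalization, filter, variance model, arrays, threshold, probe set, a replicate block and leaving out each array. No label names a batch. Descriptions of treated samples speak of rats, while organism, strain and array give mouse.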

Additional observations from a re-analysis of the deposited data

How the results depend on the processing

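Across 26 alternatives the 24 differences of the 8 genes gave 579 values, of which 557 kept their side of the threshold, 15 lost a call, 7 gained one and 0 of the called differences changed sign. The permethrin rise of Cbr3 was called in all 23 alternatives that tested it. The counts of called genes changed as follows. With an offset of 50, clofibrate against control had 0 higher. Scaling to the hybridization controls gave 2 higher and 0 lower for clofibrate. It moved the median of all genes by 0.15 for permethrin and 0.29 for clofibrate, each set against control, and by -0.14 between the diets. A filter on all 9 arrays, which leaves Cbr3 untested, gave 1 higher for permethrin against control and 0 for permethrin against clofibrate. Without an intensity trend permethrin had 1 higher and clofibrate 1 lower, since Cbr1 (adjusted p = 0.0908) and Akr1c20 (adjusted p = 0.0916) were lost. Robust estimation gave 2 higher with clofibrate, and array weights gave 2 higher with clofibrate and 3 higher for permethrin against clofibrate. A model of the 6 arrays compared gave 0 higher with clofibrate (Cbr3 adjusted p = 0.0726). With a minimum of 2-fold, permethrin had 1 higher and clofibrate 0 lower. Leaving out 1 array gave 1 to 2 higher with permethrin, 0 to 2 higher and 1 to 2 lower with clofibrate, and 1 higher between the diets in each case. The cause was not tested where none is named.

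Arrays with the same replicate number deviated together with a correlation of -0.109 to 0.113, and 2 of 9 arrays matched their own number best in both other groups, so the numbers are not taken to pair mice. With the replicate block, 2 of the genes were higher with permethrin, and the counts in the other comparisons did not change either. Over all genes the block gave 205, 726 and 63 calls in place of 266, 876 and 92, for permethrin, clofibrate and then the 2 diets compared. The same counts were 80, 397 and 10 without a trend, 313, 1496 and 226 with array weights, 164, 911 and 35 under scaling to the hybridization controls, 292, 798 and 48 with the 6 arrays compared, 103, 293 and 39 at 2-fold, and 108 to 318, 430 to 889 and 17 to 119 when 1 array was left out. The split of higher to lower calls was 160 to 106, 402 to 474 and 59 to 33 as reported, but scaling to hybridization controls made it 144 to 20, 821 to 90 and 10 to 25. Centring arrays on their medians made the permethrin split 177 to 67, while cyclic loess made the split between the diets 49 to 44. Signals near the filter, those of Cbr3 in controls and of the dimmest Akr7a5 probe set, limit what can be said of their level.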
